A study of Homo sapiens with 12 samples.

Results

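The 44 genes described here are the enzymes, transporters and regulators of glycolysis, the subunits of the hypoxia-inducible factors (HIF), the proteins that sense oxygen and turn HIF over, and other genes known as HIF targets. They were chosen by symbol, and all 44 were found among the 58288 genes listed for FaDu, an established human head and neck squamous cell carcinoma (HNSCC) line. Of these, 23 belong to glycolysis (3 glucose and lactate transporters, 17 enzymes and 3 regulators), 3 are HIF subunits, 3 act in oxygen sensing and HIF turnover, and 15 are other HIF targets. RNA-Seq was performed on 4 groups of 3 libraries each, which were FaDu WT, FaDu with STING KO (genotype STING-/-), and the same cells (WT and KO) after 4 daily treatments of 2 Gy. Here WT means the cells of the non-targeting guide, so both genotypes had gone through Cas9 and guide lentivirus and puromycin selection, and neither was described as a single clone in the methods. All cells were grown in DMEM with FBS, and neither the labels nor the methods of the RNA-Seq describe a hypoxic arm. Nothing in the labels says that the 3 libraries of a group came from separate cultures, so p-values here measure only the spread between these libraries, which may be technical.

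Glycolysis splits glucose into pyruvate in the cytosol. Hexokinases trap glucose as glucose 6-phosphate, phosphofructokinases make the committed step, and lactate dehydrogenases interconvert pyruvate and lactate, which leaves the cell through transporters such as that of SLC16A3. When oxygen is present, the prolyl hydroxylases of EGLN1 and EGLN3 mark the HIF alpha subunits (HIF1A and EPAS1) for ubiquitination by VHL. When oxygen is low, the alpha subunits persist, pair with ARNT, and bind a core motif of DNA ahead of glycolytic genes and of genes for angiogenesis, pH control, matrix and mitophagy. HIF alpha activity is set largely at the protein level, and protein was not measured in these data.

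Values are TPM (transcripts scaled by their length and by the library total), with each library summing to 1000000, so the read depth behind a value is unknown. STING is listed as TMEM173, and its TPM was 21.1 to 26.1 in the WT libraries and 5.18 to 7.41 in the KO libraries of both arms, which did not overlap (two-sided exact permutation test, p = 0.1 in each arm, the smallest that 3 against 3 allows). The 10 epithelial and squamous markers examined, such as KRT5 and TP63, were each at 1 TPM or more in every library. Of 8 fibroblast markers 7 were below 1 TPM in every library (all but COL1A1), as were PTPRC, CD3E, MS4A1 and LYZ among the leukocyte markers and PECAM1, KDR and TEK of 5 endothelial markers. The summed endothelial markers, mostly CDH5, were at 11.5 to 15.9 TPM in unirradiated and 18.3 to 23.9 TPM in irradiated libraries, and the summed leukocyte markers, mostly CD68, at 18.9 to 28.4 TPM in unirradiated and 20.6 to 34.4 TPM in irradiated libraries. Their part in the radiation results below was not tested. Differences are given as log2 fold changes of TPM + 1, which understate changes at low TPM. They come from limma fitted to the 15973 genes with 1 TPM or more in at least 3 libraries, with a Benjamini-Hochberg adjusted p under 0.05 over all of these genes as the threshold. In bulk RNA, fewer cells with a transcript and less of it per cell cannot be told apart.

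The promoter bases of 3 members past that threshold are shown because they hold the core letters to which HIF binds. The letters searched were ACGTG and GCGTG on both strands, and the capitals mark each match. The 6-letter run CACGTG, which is also the E-box of other factors, holds a match on each strand and was counted once. Sequences are from RefSeq (GRCh38.p14) and cover the bases ahead of the exons that GENCODE release 29 gives, within 250 bases of the RefSeq start. They read 5′ to 3′ on the strand of the gene, which is minus for BNIP3 (chr10:131982014-131982173) and LOX (chr5:122078361-122078509) and plus for HK2 (chr2:74833877-74833980).
BNIP3: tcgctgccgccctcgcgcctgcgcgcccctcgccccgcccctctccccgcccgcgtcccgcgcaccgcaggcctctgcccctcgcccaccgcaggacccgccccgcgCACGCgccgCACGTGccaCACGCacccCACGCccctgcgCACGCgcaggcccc
HK2: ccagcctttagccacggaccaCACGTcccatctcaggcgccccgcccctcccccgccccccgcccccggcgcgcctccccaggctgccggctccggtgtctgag
LOX: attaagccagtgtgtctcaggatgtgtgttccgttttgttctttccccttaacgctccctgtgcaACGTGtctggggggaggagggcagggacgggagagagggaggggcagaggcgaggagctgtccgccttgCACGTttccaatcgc
All 5 matches of BNIP3 lie between 102 and 141 bases before the RefSeq start. Over the full 250 bases HK2 has 3 matches and LOX 4, of which the stretches above hold 1 and 2. BHLHE40 has 3 matches in its window, which lies within its GENCODE exons. P4HA1 has 1 match, which lies past the bases ahead of its exons. The window of PFKP, the first of 4 listed, lies inside the gene as GENCODE places it and holds no match. For BHLHE40 and PFKP the windows thus do not show which letters lie ahead of the GENCODE start. VEGFA, also past the threshold, has no promoter in the RefSeq table and was not searched. Of the 39 members with a promoter in the RefSeq table, 25 (64.1%) hold a match, 12 of 22 glycolysis genes (54.5%) and 10 of 12 other HIF targets (83.3%). The letters are common, since 43.1% of all 27305 promoters in the table and 57.6% of the 10233 promoters of tested genes hold them. The median GC content was 68.4% for the members, 58.0% for all promoters and 65.2% for those of tested genes. A match describes the letters only.

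Glycolytic enzymes were among the more abundant transcripts. GAPDH, the glyceraldehyde 3-phosphate dehydrogenase, had the highest mean TPM of the members, with 7682, 7714 and 8066 TPM in the unirradiated WT libraries and 8667, 8226 and 8346 TPM in the unirradiated KO libraries. After radiation GAPDH was at 8052, 7507 and 8037 TPM in WT and 8149, 8034 and 7835 TPM in KO. Only in the unirradiated arm did the KO libraries of GAPDH all lie above the WT libraries, and the log2 fold change of 0.11 (SE 0.04) did not pass (limma adjusted p = 0.25). The 17 enzymes together held 1.79% to 2.03% of the TPM of a library, with means of 1.87% ± 0.0700 (SD, n = 3) in WT, 1.99% ± 0.0488 in KO, 1.897% ± 0.0372 in irradiated WT and 1.86% ± 0.0365 in irradiated KO libraries. LDHB, ENO1, PKM, TPI1, ALDOA and LDHA followed GAPDH, with means over the 12 libraries from 1050.2 to 2365 TPM. At the other end SLC2A3, a neuronal-type glucose transporter, lay between 0.876 and 1.83 TPM and PDK1, a kinase that holds back pyruvate dehydrogenase, between 1.67 and 8.99 TPM.

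**Figure D1:**
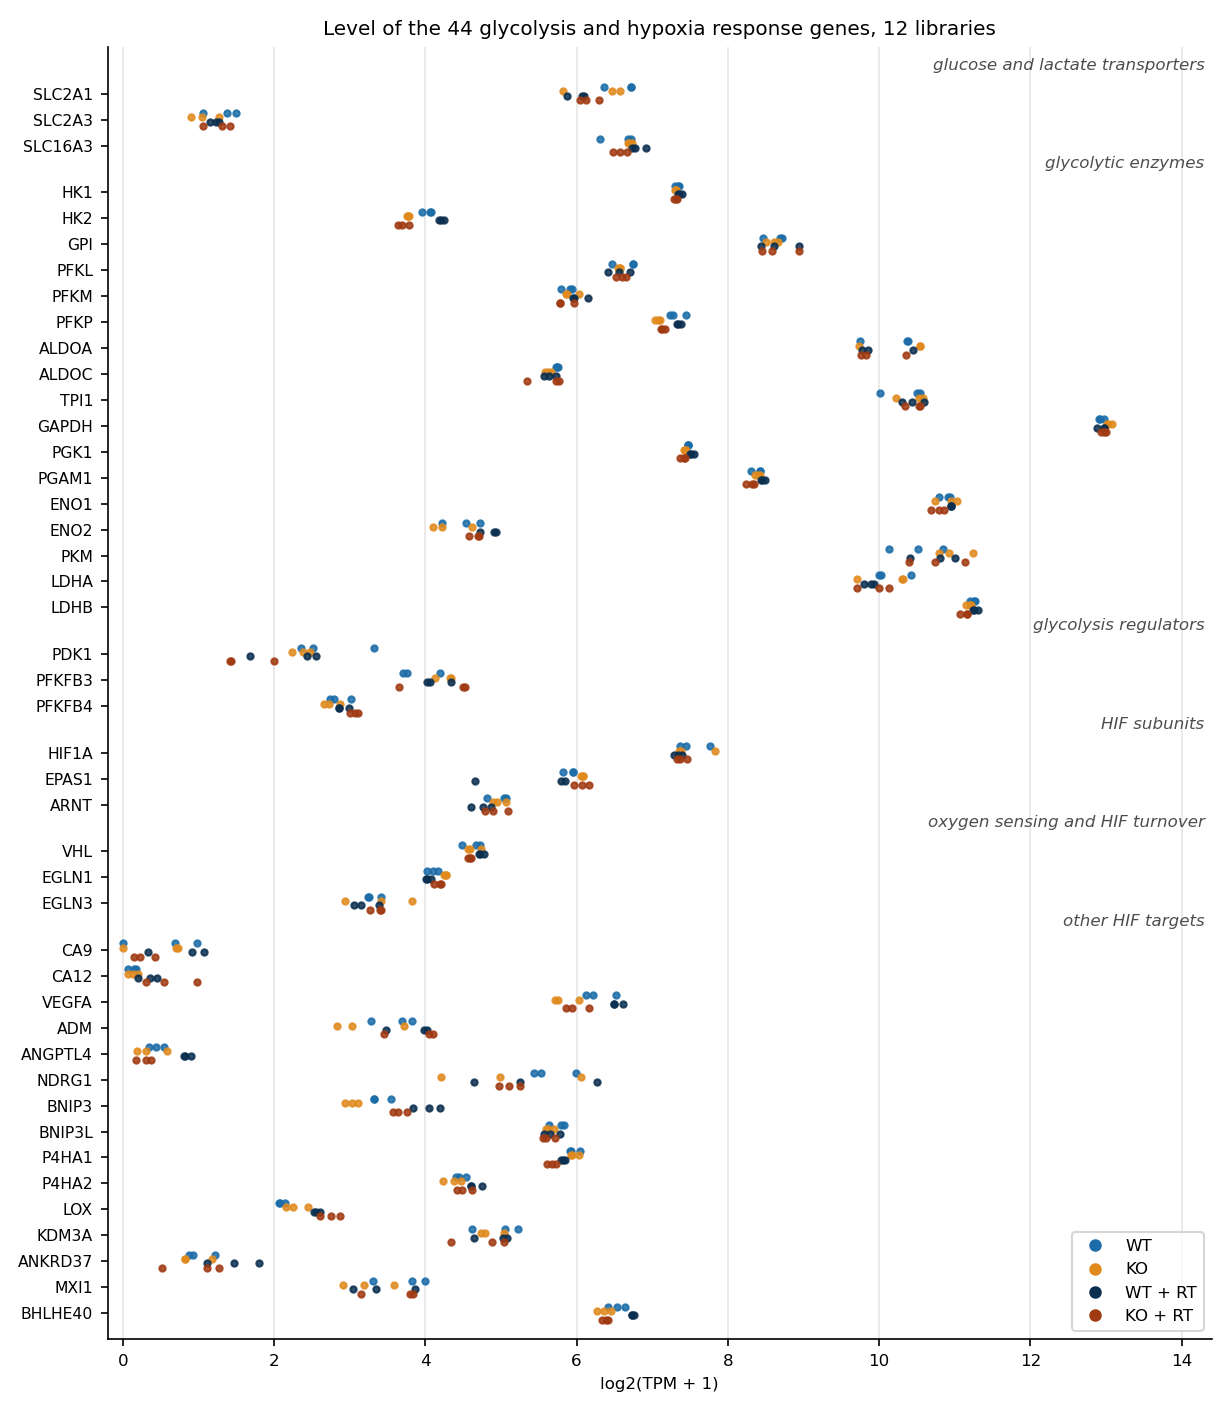
Level of each of the 44 genes, as log2(TPM + 1) on the horizontal axis, with 1 point for each of the 12 libraries coloured by group (WT, KO, and each after radiation) and genes ordered by role. The enzyme GAPDH lies highest at 7507 to 8667 TPM, CA9, CA12 and ANGPTL4 lie near 0, and for most genes the points of the 4 groups overlap.

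With STING KO in unirradiated cells, 1 of the 23 glycolysis genes passed the threshold. This was PFKP, the platelet isoform of phosphofructokinase, which was lower in KO. PFKP was at 173, 150.3 and 154 TPM in WT and 137, 134 and 130.3 TPM in KO libraries, so every KO library lay below every WT library. Its log2 fold change was -0.25 with an SE of 0.05 (limma adjusted p = 0.049). After radiation PFKP was at 161, 165 and 159.7 TPM in WT and 143, 139 and 138 TPM in KO, again without overlap, and the log2 fold change was -0.21 with an SE of 0.05 (limma adjusted p = 0.065). The call in unirradiated cells was lost under 17 of 20 other settings, among them every left-out library but unirradiated WT replicate 2, with adjusted p from 0.038 to 0.22. PFKP is at 3066333 to 3137712 on the plus strand of chromosome 10 (GRCh38).

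The background for these counts is that 1.73% of all tested genes passed for KO against WT in unirradiated cells, 1.26% being lower in KO. Among all 41 members tested, PFKP was the only one called there, and 7 had an unadjusted p under 0.05. The share of all tested genes with an unadjusted p under 0.05 is not given, here or below, so such counts are not read as results. For 10 of the 41 members the libraries of the genotypes were fully apart, against 20.6% of all tested genes. The median log2 fold change of the 23 glycolysis genes was -0.04, beside -0.02 for all tested genes. For 18 of the 23 the 95% confidence interval stayed within 1.5-fold in both directions, as it did for 71.1% of all tested genes. For GAPDH, HK1, PGK1 and LDHB, for instance, the intervals were 0.02 to 0.19, -0.10 to 0.06, -0.12 to 0.04 and -0.14 to 0.03 on the log2 scale. The sign of HK1, GPI and PGAM1 flipped under another scaling between libraries, with differences of at most 0.03 on the log2 scale in the TPM as deposited.

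After radiation, HK2 was the glycolysis gene past the threshold between genotypes, and it was lower in KO. HK2 is the hexokinase associated with proliferating and tumor cells. Its TPM was 18.1, 17.2 and 17.4 in irradiated WT libraries and 12.8, 11.98 and 11.4 in irradiated KO libraries, a log2 fold change of -0.51 with an SE of 0.06 (limma adjusted p = 0.00085). In unirradiated cells HK2 was at 14.6, 15.7 and 15.9 TPM in WT and 12.7, 12.5 and 12.7 TPM in KO. The unirradiated libraries did not overlap either, but the log2 fold change of -0.26 (SE 0.06) fell just short of the threshold (limma adjusted p = 0.062) and passed only where genes under a mean of 5 TPM were left out. The call after radiation held under all 20 other settings, with adjusted p from 0.00058 to 0.027. HK2 lies at 74833981 to 74893359 on the plus strand of chromosome 2 and overlaps the noncoding AC019069.1 on the other strand (2.84 to 6.41 TPM). Whether reads were counted by strand is not given in the sources used here, so the reads of the pair cannot be told apart.

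Among all tested genes 3.59% passed for KO against WT after radiation, 2.66% being lower in KO. Of the 41 members 3 passed, all lower, and the other 2 are HIF targets described further on. The libraries of the genotypes did not overlap for 17 of the 41 members and for 24.1% of all tested genes. The median log2 fold change of the 23 glycolysis genes was -0.04 in this arm too, against -0.02 for all tested genes, and it ranged from -0.13 to -0.04 as each library was left out in turn. Below the threshold, PGK1, PGAM1, LDHB, ENO1 and SLC16A3 were lower in each irradiated KO library than in any irradiated WT library, with log2 fold changes of -0.11, -0.16, -0.14, -0.17 and -0.23 and limma adjusted p from 0.078 to 0.27. HK1 and ENO2 were also lower without overlap and did not pass, with log2 fold changes of -0.05 and -0.19. Their margins were narrow, at most 160.1 and 25.23 TPM in irradiated KO against at least 161.7 and 25.34 TPM in irradiated WT libraries. PFKFB4 was higher in each irradiated KO library than in any irradiated WT library, with a log2 fold change of 0.16 (limma adjusted p = 0.42). PDK1 had the most negative estimate of the glycolysis genes, -0.61, with overlapping libraries and an interval from -1.25 to 0.04.

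**Figure D2:**
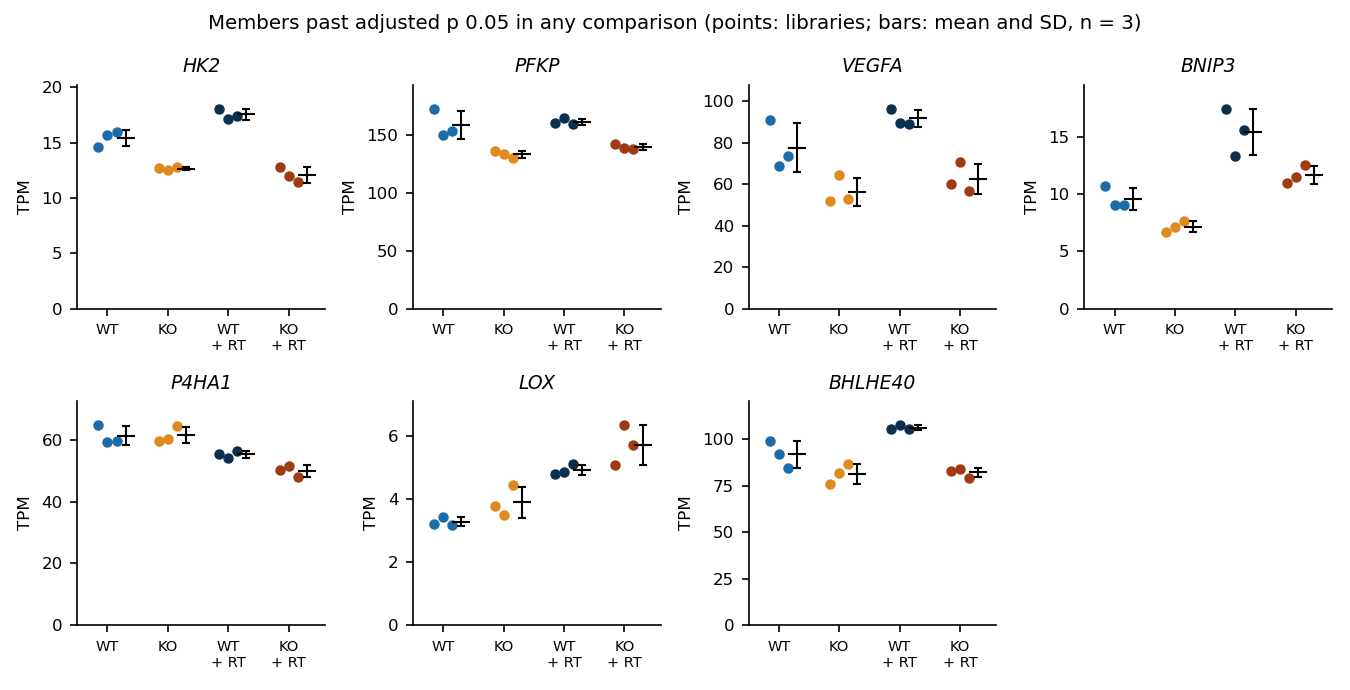
TPM of the 7 members past adjusted p 0.05 in any comparison, 1 panel each with its own vertical axis from 0, by group (WT, KO, and each after radiation, + RT), with points for libraries and bars for the mean and SD (n = 3). HK2, VEGFA and BHLHE40 lie lower in the irradiated KO than in the irradiated WT libraries, BNIP3 and LOX rise with radiation in both genotypes, and P4HA1 is lowest in irradiated KO libraries at 48.0 to 51.8 TPM.

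Radiation moved no glycolysis gene past the threshold in either genotype by limma, with 4 of the 23 at an unadjusted p under 0.05 in WT and 3 in KO. The background was 3.74% of all tested genes in WT and 3.69% in KO. The medians were 0.04 in WT and -0.06 in KO, beside 0.02 for all tested genes in each. SLC2A1, the main glucose transporter here, was at 105, 104 and 81.1 TPM in WT and at 67.4, 57.4 and 66.1 TPM in irradiated WT libraries, which did not overlap (log2 fold change -0.59, SE 0.18, limma adjusted p = 0.11). Leaving out unirradiated KO replicate 1 took it past the threshold. PFKFB4, which makes the fructose 2,6-bisphosphate that activates phosphofructokinase, was at 5.33 to 6.29 TPM in KO and 7.05 to 7.63 TPM in irradiated KO libraries (log2 fold change 0.31, SE 0.09, limma adjusted p = 0.10). PDK1, the kinase that inactivates pyruvate dehydrogenase, had the estimate farthest from 0 in KO, -0.75 (SE 0.29, limma adjusted p = 0.20), with every irradiated KO library at 1.67 to 3.01 TPM and every unirradiated one at 3.71 to 4.55 TPM. ENO2, an enolase best known from neurons, had estimates of 0.36 in WT and 0.35 in KO (SE 0.15 each) that also did not pass, with limma adjusted p of 0.23 and 0.24.

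The regulator of highest level was PFKFB3, which also makes fructose 2,6-bisphosphate. It was at 17.4, 12.03 and 12.5 TPM in WT, 19.0, 16.5 and 19.3 TPM in KO, 15.8, 19.2 and 15.2 TPM in irradiated WT and 11.6, 22.1 and 21.7 TPM in irradiated KO libraries. The groups overlapped in all 4 comparisons, and irradiated KO held both the lowest and the highest of the 12 libraries. The lactate exporter SLC16A3 was the transporter of highest mean level, at 104, 78.4 and 102 TPM in WT and 105, 102 and 102 TPM in KO. After radiation it was at 119, 105 and 108 TPM in WT and 94.5, 101 and 88.2 TPM in KO. The irradiated WT libraries thus all lay above the unirradiated WT libraries (log2 fold change 0.23, limma adjusted p = 0.25, and 0.10 without unirradiated WT replicate 2), and the irradiated KO libraries all below the unirradiated KO libraries (log2 fold change -0.12, limma adjusted p = 0.57).

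The TPM of a step was unequally divided among the isozymes that are members. HK2 made up 8.79% ± 0.477 (SD, n = 3) of the summed TPM of HK1 and HK2 in WT, 7.44% ± 0.0976 in KO, 9.67% ± 0.374 in irradiated WT and 7.10% ± 0.418 in irradiated KO libraries. HK1 itself stayed between 155 and 167 TPM in all 12 libraries. PFKP made up 46.1% to 52.5% of the summed phosphofructokinases PFKL, PFKM and PFKP. LDHB, the isozyme of tissues that oxidize lactate, exceeded LDHA in every library, with LDHA at 26.1% to 35.9% of their sum. ALDOA was 94.2% to 96.9% of the aldolases ALDOA and ALDOC, ENO1 98.5% to 99.2% of the enolases ENO1 and ENO2, and SLC2A1 97.5% to 99.0% of SLC2A1 and SLC2A3. Shares of HK2 and its TPM use the same values and are not separate observations.

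**Figure D3:**
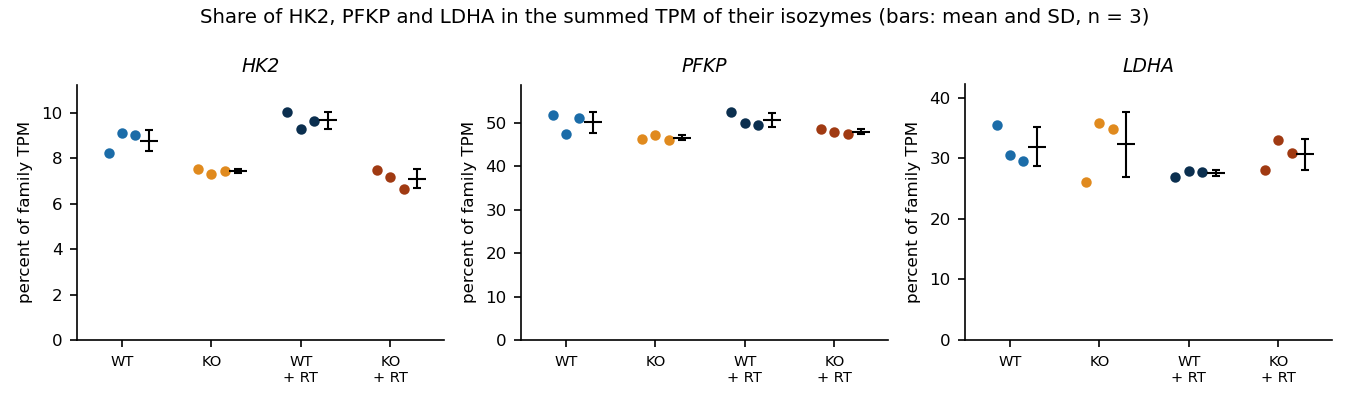
Share of HK2 in HK1 and HK2, of PFKP in the 3 phosphofructokinases and of LDHA in LDHA and LDHB, in percent of the summed TPM on vertical axes from 0, by group (+ RT, irradiated), with points for libraries and bars for the mean and SD (n = 3). The HK2 share is 6.66% to 7.52% in KO and 8.24% to 10.1% in WT libraries of both arms, and the LDHA share is 27.0% to 28.0% in irradiated WT libraries, beneath the 29.6% to 35.6% of unirradiated WT.

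How closely the 3 libraries of a group lay together differed between members, which sets what could be detected. The spread is given as the root mean square of the coefficients of variation of the 4 groups. It was 1.57% for HK1 and 1.61% for PGK1, but 25.7% for ALDOA, 21.9% for PKM and 45.9% for NDRG1. These genes and EPAS1 are named after their values were seen. ALDOA, the main aldolase, fell into separate levels, with 6 libraries at 849.8 to 925 TPM and 6 at 1309 to 1489 TPM, and each group had libraries at both. PKM, the pyruvate kinase gene, ranged from 1120.2 to 2421 TPM, and its log2 fold change of 0.49 between unirradiated KO and WT had an interval from -0.02 to 1.00 (limma adjusted p = 0.37). For LDHA the interval of the same comparison was -0.42 to 0.35. With such spreads a modest difference in ALDOA, PKM or LDHA was not detectable, whereas for HK1 or PGK1 the intervals of the 4 comparisons reached no lower than -0.19 and no higher than 0.13 on the log2 scale.

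**Figure D4:**
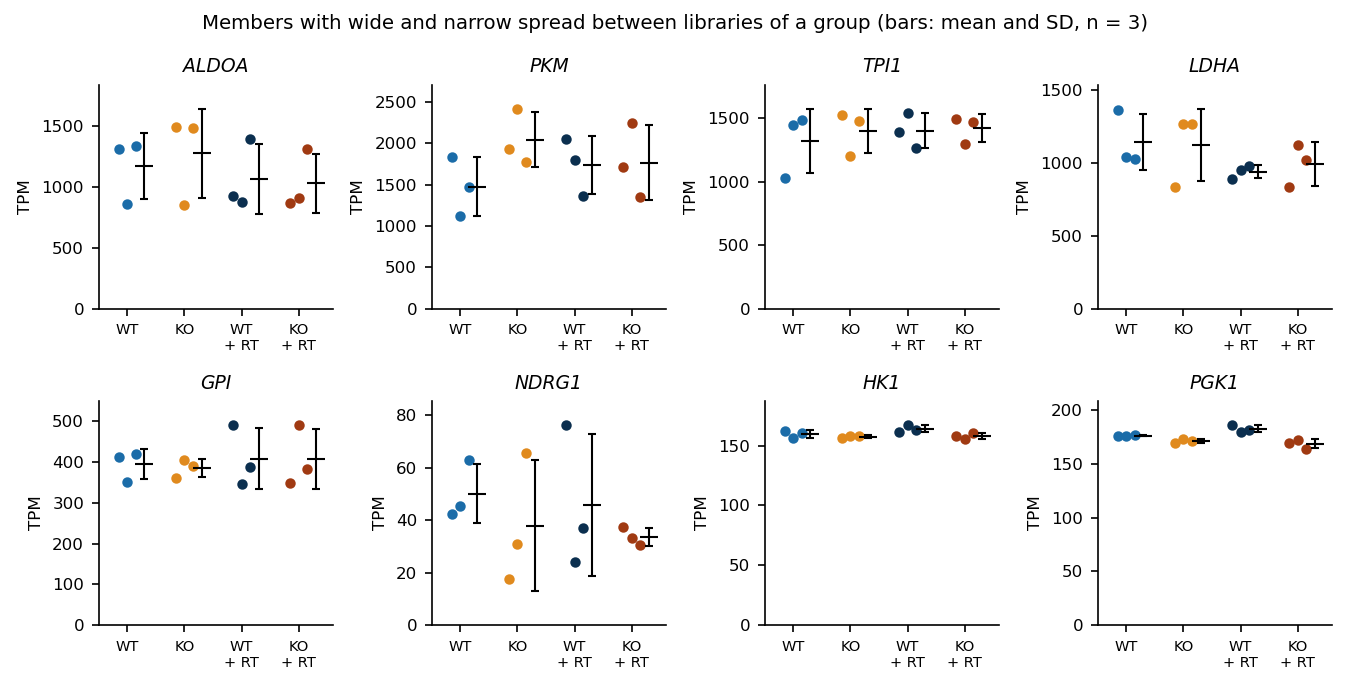
TPM of 6 members with a wide and 2 with a narrow spread within groups, each panel with its own vertical axis from 0, by group (+ RT, irradiated), with points for libraries and bars for the mean and SD (n = 3). ALDOA splits into 6 libraries at 849.8 to 925 TPM and 6 at 1309 to 1489 TPM across all 4 groups, while HK1 stays between 155 and 167 TPM.

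No HIF subunit and no oxygen-sensing gene passed the threshold in any comparison by limma. An unadjusted p under 0.05 was reached by 3 of these 6 genes in at least 1 comparison, a count with no share of all tested genes beside it. HIF1A was at 163, 174 and 215 TPM in WT, 162, 165 and 226 TPM in KO, 161, 167 and 156 TPM in irradiated WT and 159.5, 165 and 175 TPM in irradiated KO libraries. In each unirradiated group 1 library was well above the other two, and the groups overlapped throughout. The interval for HIF1A between unirradiated KO and WT was -0.29 to 0.28 on the log2 scale, and between irradiated KO and WT -0.24 to 0.33. EPAS1, which encodes HIF-2 alpha, was at 24.2 TPM in irradiated WT replicate 1 and at 54.5 and 56.4 TPM in the other two, beside 70.5, 61.8 and 66.2 TPM in irradiated KO libraries. Its log2 fold change after radiation was 0.64 between KO and WT (SE 0.25, limma adjusted p = 0.21), and 0.25 without irradiated WT replicate 1 (limma adjusted p = 0.11). Without radiation EPAS1 was at 61.2, 55.7 and 61.2 TPM in WT and 65.7, 66.9 and 66.8 TPM in KO. The genotypes did not overlap there either, and the log2 fold change of 0.16 did not pass. ARNT lay between 23.3 and 33.2 TPM.

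Of the oxygen-sensing genes VHL, the substrate-binding part of the ubiquitin ligase for HIF alpha, had the highest mean. It was at 25.4, 24.4 and 21.4 TPM in WT, 25.7, 23.1 and 22.6 TPM in KO, 25.4, 26.4 and 25.1 TPM in irradiated WT and 23.4, 22.6 and 23.2 TPM in irradiated KO libraries. Only after radiation did the genotypes of VHL not overlap, and the log2 fold change of -0.15 did not pass (limma adjusted p = 0.32). EGLN1 was higher in every KO library than in any WT library of its arm, at 18.0 to 18.4 against 15.2 to 16.9 TPM unirradiated and at 16.3 to 17.4 against 15.1 to 15.8 TPM irradiated. Its log2 fold changes of 0.17 and 0.14 (SE 0.06 each) did not pass, with limma adjusted p of 0.19 and 0.22. EGLN3, itself a HIF target, was at 6.65 to 13.2 TPM with overlap in all 4 comparisons. Its locus overlaps the more abundant SPTSSA (111 to 139 TPM) on the same strand, and how reads were split between the pair is unknown.

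For KO against WT, 0 of the 12 other HIF targets tested passed unirradiated and 2 irradiated, beside 1.73% and 3.59% of all tested genes. With radiation 2 of them passed in WT and 3 in KO, beside 3.74% and 3.69% of all tested genes. VEGFA and BHLHE40 were lower in KO after radiation, BNIP3 and LOX rose with radiation in both genotypes, and P4HA1 fell with radiation in KO. Of the 15 targets 12 were tested, and KO against WT gave a lower estimate for 10 of them in unirradiated cells and 9 in irradiated cells, under each scaling tried. Of all 15973 tested genes, 7095 had a higher estimate in KO unirradiated and 7343 irradiated, so lower estimates were the more common there too. The median log2 fold change of the 12 targets between genotypes was -0.14 unirradiated and -0.16 irradiated, where that of all tested genes was -0.02 in each. With radiation their median was 0.20 in WT and 0.09 in KO, where that of all tested genes was 0.02 in each.

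VEGFA, the main angiogenic growth factor of the HIF response, was at 96.6, 89.5 and 89.3 TPM in irradiated WT and 60.2, 70.7 and 56.8 TPM in irradiated KO libraries. Every irradiated KO library was thus below every irradiated WT library, with a log2 fold change of -0.55 with an SE of 0.12 (limma adjusted p = 0.033). In unirradiated cells VEGFA was at 91.0, 68.7 and 73.5 TPM in WT and 51.8, 64.2 and 52.8 TPM in KO, which did not overlap, and the log2 fold change of -0.46 (SE 0.12) did not pass (limma adjusted p = 0.11). The call after radiation was lost under 7 of 20 other settings, among them leaving out any irradiated library but KO replicate 2, with adjusted p from 0.019 to 0.12. VEGFA lies at 43770184 to 43786487 on the plus strand of chromosome 6 and overlaps the antisense AL136131.3 (0.686 to 5.08 TPM).

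BHLHE40, a transcriptional repressor of the clock and of metabolism, was the HIF target of highest mean level. Its TPM was 105, 108 and 106 in irradiated WT and 83.2, 84.2 and 79.4 in irradiated KO libraries, a log2 fold change of -0.37 with an SE of 0.06 (limma adjusted p = 0.011). In unirradiated cells it was at 99.0, 92.0 and 84.7 TPM in WT and 76.1, 81.7 and 86.6 TPM in KO, which overlapped, and the log2 fold change of -0.17 did not pass (limma adjusted p = 0.25). The call after radiation held under all 20 other settings, with adjusted p from 0.0074 to 0.049. BHLHE40 lies at 4979116 to 4985323 on the plus strand of chromosome 3 and overlaps the antisense BHLHE40-AS1 (0.204 to 0.854 TPM).

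BNIP3, a mitochondrial receptor for mitophagy, was at 10.7, 8.99 and 8.99 TPM in WT and 17.4, 13.3 and 15.5 TPM in irradiated WT libraries. In KO it was at 6.66, 7.15 and 7.61 TPM before and 10.9, 11.5 and 12.5 TPM after radiation. All irradiated libraries of a genotype were above its unirradiated ones, with a log2 fold change of 0.63 (SE 0.10) in WT (limma adjusted p = 0.0092) and also 0.63 (SE 0.10) in KO (limma adjusted p = 0.0094). The difference between these effects on the log2 scale had an interval from -0.33 to 0.32. Between genotypes BNIP3 was lower in every KO library than in any WT library of its arm, with log2 fold changes of -0.37 in each arm that did not pass (limma adjusted p = 0.13 unirradiated and 0.084 irradiated). The radiation call in KO held under all 20 other settings and that in WT under all but the fit to only the 6 libraries compared, where the adjusted p was 0.077 (range over the settings 0.0075 to 0.077). BNIP3 lies at 131966455 to 131982013 on the minus strand of chromosome 10. It has 38 pseudogenes named after it in the table, whose summed TPM was at most 11.1% of that of BNIP3 in any library, and how the authors' tools split reads among such copies is uncertain. An antisense gene, AL162274.2, overlaps BNIP3 on the opposite strand and was at 0.189 to 3.13 TPM, and reads of the pair cannot be told apart if the counting did not use strand. The related BNIP3L stayed between 46.1 and 56.2 TPM with overlap in all 4 comparisons.

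LOX, which cross-links collagen, was low in these epithelial cells. It was at 3.21, 3.43 and 3.18 TPM in WT and 4.79, 4.86 and 5.10 TPM in irradiated WT libraries, a log2 fold change of 0.47 with an SE of 0.10 (limma adjusted p = 0.028). In KO it was at 3.77, 3.47 and 4.44 TPM before and 5.09, 6.34 and 5.72 TPM after radiation, a log2 fold change of 0.46 with an SE of 0.10 (limma adjusted p = 0.030). Neither genotype had overlap between its arms. The call in WT was lost under 9 of 19 other settings, among them leaving out any WT library, with adjusted p from 0.020 to 0.087. The call in KO was lost under 7 of 19, among them leaving out KO replicate 1 or 2 or irradiated KO replicate 2 or 3, with adjusted p from 0.023 to 0.15. LOX lies at 122063195 to 122078360 on the minus strand of chromosome 5 and overlaps the more abundant SRFBP1 (19.3 to 23.4 TPM) on the other strand, from whose reads it cannot be told apart without strand.

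P4HA1, a prolyl hydroxylase of collagen, moved the other way. It was at 59.9, 60.5 and 64.5 TPM in KO and 50.2, 51.8 and 48.0 TPM in irradiated KO libraries, a log2 fold change of -0.30 with an SE of 0.05 (limma adjusted p = 0.014). In WT it was at 64.9, 59.4 and 59.8 TPM before and 55.6, 54.3 and 56.4 TPM after radiation, also without overlap, and the log2 fold change of -0.14 did not pass (limma adjusted p = 0.18). The effect of radiation in KO minus that in WT was -0.15 (SE 0.07, limma adjusted p = 0.76). The call in KO was lost in the fit to only 6 libraries and without KO replicate 3 or irradiated KO replicate 3, with adjusted p from 0.0087 to 0.078. P4HA1 lies at 73007217 to 73096974 on the minus strand of chromosome 10. Its relative P4HA2 was at 17.8 to 25.8 TPM and passed in no comparison.

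With radiation, 2 of the 41 members were called higher in WT and 2 in KO, where 2.24% and 2.00% of all tested genes were, and 1 was called lower in KO, where 1.70% were. Radiation separated the libraries without overlap for 14 members in WT and 10 in KO, against 24.8% and 24.3% of all tested genes. ADM, a vasodilator peptide, had the largest positive estimate in KO, 0.68 (SE 0.26), but at 6.12 to 12.1 TPM before and 9.99 to 16.2 TPM after radiation its libraries overlapped (limma adjusted p = 0.20). NDRG1 ranged from 17.4 to 76.3 TPM, with an interval for KO against WT of -1.60 to 0.46 in unirradiated and -1.31 to 0.76 in irradiated cells. MXI1 (6.53 to 14.9 TPM), KDM3A (19.3 to 36.3 TPM) and ANKRD37 (0.437 to 2.50 TPM) did not pass in any comparison.

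The carbonic anhydrase CA9, a widely used hypoxia marker, its relative CA12 and the lipase inhibitor ANGPTL4 were below the filter on low values and were compared by exact permutation tests alone. CA9 was at 0 to 0.975 TPM in WT, 0 to 0.655 TPM in KO, 0.261 to 1.10 TPM in irradiated WT and 0.113 to 0.344 TPM in irradiated KO libraries, and is listed at 0 in WT replicate 2 and KO replicate 1. CA12 lay between 0.05002 and 0.974 TPM, and in each genotype its irradiated libraries were above the unirradiated ones (exact permutation p = 0.1, the smallest possible). ANGPTL4 was at 0.877, 0.750 and 0.776 TPM in irradiated WT libraries, above all others, which lay at 0.128 to 0.506 TPM (exact permutation p = 0.1 against WT and against irradiated KO). Without the filter ANGPTL4 passed the threshold of limma for KO against WT after radiation. At these levels the pseudocount takes up most of a difference, and the depth is unknown. ANGPTL4 overlaps the more abundant RAB11B-AS1 (1.79 to 2.93 TPM) on the other strand. CA9 likewise overlaps the more abundant ARHGEF39 (7.43 to 17.03 TPM) on the other strand. The reads of each pair cannot be told apart if the counting did not use strand.

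**Figure D5:**
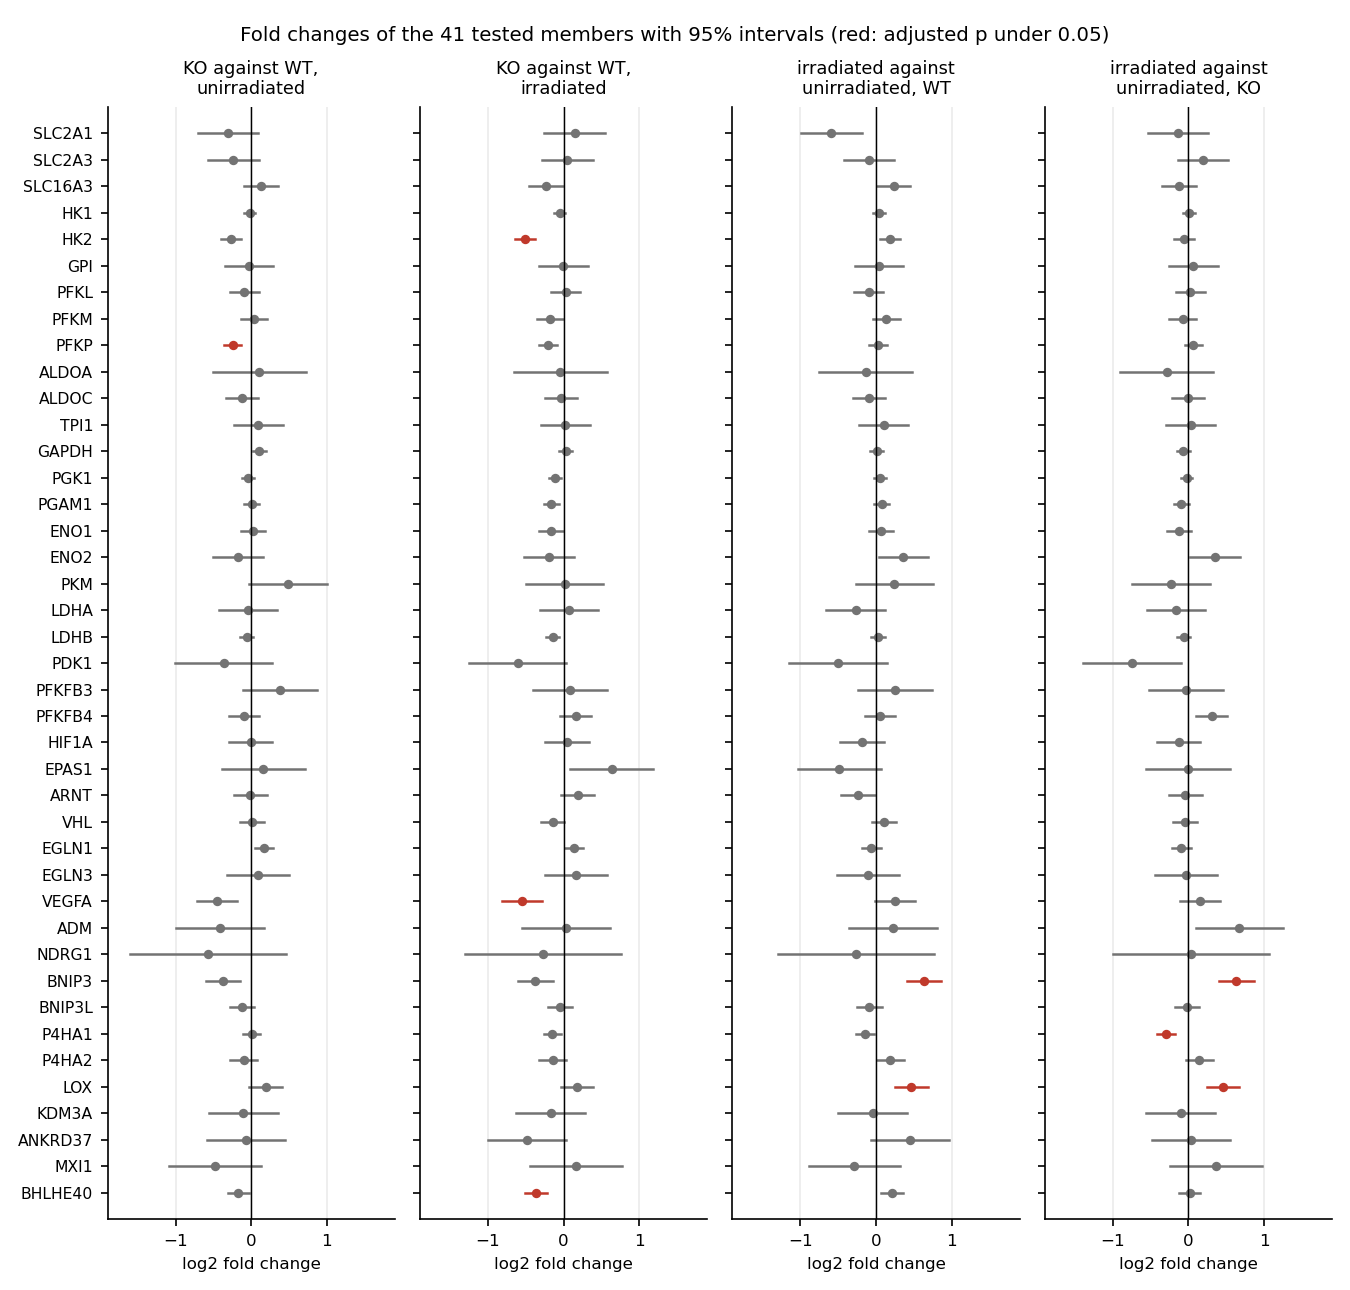
Log2 fold change (TPM + 1) of the 41 tested members with 95% confidence intervals in 4 comparisons, KO against WT without and with radiation and irradiated against unirradiated in WT and in KO, with members past adjusted p 0.05 in red. PFKP (left) passes for KO against WT in unirradiated cells, HK2, VEGFA and BHLHE40 to the left for KO against WT after radiation, BNIP3 and LOX to the right for radiation in both genotypes, P4HA1 to the left for radiation in KO, and NDRG1 has the widest intervals.

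The interaction asked whether radiation acted differently in the genotypes. None of the 41 members passed by limma, where 0.0188% of all tested genes did (3 genes), and the count of members stayed at 0 under every other setting tried. Unadjusted p was under 0.05 for HK2, SLC16A3 and PGAM1, with radiation effects in KO minus those in WT of -0.24, -0.36 and -0.17 and limma adjusted p of 0.71, 0.74 and 0.73. For 26 of the 41 members the interval of the interaction stayed within 1.5-fold, as it did for 55.3% of all tested genes. An effect called in one genotype or arm alone, as for HK2, VEGFA, BHLHE40 and P4HA1, was therefore not shown to differ between them.

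A further 80 genes of glycolysis, pyruvate use and the HIF pathway were taken as context, of which 61 were tested. For KO against WT, 2 of the 61 passed in each arm, both lower in KO, where 1.73% of all tested genes passed unirradiated and 3.59% irradiated. One of them was STC2, a stanniocalcin, with log2 fold changes of -0.35 and -0.45 (SE 0.06, limma adjusted p = 0.012 and 0.0018). With radiation 8 of the 61 passed in each genotype, 7 higher and 1 lower in WT and 6 higher and 2 lower in KO, where 3.74% and 3.69% of all tested genes passed.

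PGF (a growth factor of the VEGF family) and IER3 (an early stress response gene) rose with radiation in both genotypes, with log2 fold changes of 0.89 and 0.75 in WT and 0.81 and 0.48 in KO. DDIT4, an inhibitor of mTORC1 that both HIF and stress induce, fell in both, with log2 fold changes of -0.50 in WT and -0.67 in KO. DDIT4 was at 283, 289 and 301 TPM in WT and 200.1, 193 and 224 TPM in irradiated WT libraries, and at 282, 273 and 302 TPM in KO and 183, 181 and 174 TPM in irradiated KO libraries. ENO3, an enolase best known from muscle, and TIGAR, a fructose bisphosphatase, were called higher in both genotypes, with log2 fold changes of 0.38 and 0.34 in WT and 0.43 and 0.31 in KO. TGFA and SLC2A6 were called higher in WT (0.44 and 0.40), and in KO PDHB was called higher (0.29) and IGFBP3 lower (-1.21). SLC2A6 was at 10.2 to 12.1 TPM in KO and 13.1 to 15.5 TPM in irradiated KO libraries, without overlap though not called. PDHB was at 49.06 to 52.1 TPM in WT and 46.5 to 49.12 TPM in irradiated WT libraries, which overlapped. IGFBP3, a carrier of insulin-like growth factors, was at 85.1, 86.8 and 75.0 TPM in KO and 32.1, 29.03 and 45.2 TPM in irradiated KO libraries. No gene of these 61 passed for the interaction by limma, and 5 had an unadjusted p under 0.05. A radiation effect called in a single genotype was thus not shown to differ between genotypes.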

How the data were processed

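RNA-Seq was performed on polyadenylated RNA of FaDu WT and STING KO cells, with 3 libraries in each of 4 groups. The authors deposited TPM for 58288 genes, of which 25770 were at 0 in every library. The submitters' processing notes name HISAT2, StringTie, DESeq2 and hg38 without versions, and the annotation and strand setting are not given in the sources used here. Since TPM holds no read depth, the error given is the spread between libraries alone. The authors' DESeq2 analysis needs counts, and counts were not used here. Columns were assigned by name, NT2 being the non-targeting guide (WT) and A63 the STING KO, with the replicate numbers of the titles, and 0 columns were left unused. No 2 library columns were identical, and Pearson's r across genes within a group was 0.983 to 0.987.

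From the deposited TPM, log2(TPM + 1) entered limma 3.58.1 in R 4.3.3 (eBayes with trend) for 15973 genes, those at 1 TPM or more in at least 3 of 12 libraries. A model of 4 group means (8 residual degrees of freedom) gave 5 contrasts, with Benjamini-Hochberg adjustment over all tested genes and a threshold of 0.05. The code was tested on simulated data. Single values were compared by two-sided exact permutation tests in scipy 1.17.1, and figures were drawn with matplotlib 3.10.9. Identifiers of all 44 members were matched to GENCODE release 29 on GRCh38 (36 with the version number), and 39 promoters to RefSeq (GRCh38.p14, the first window listed for a gene). Per-library values are given for members past the threshold in any contrast and for the member of highest mean TPM in each role, and of the 80 further pathway genes at most the 6 largest changes past the threshold in a contrast are named. PGAM1, SLC2A1, ENO2, PFKFB4, ADM and others outside this rule are members named after their values were seen. The result of a further pathway gene is not reported here. The members and all gene lists, compiled from general knowledge, were chosen with earlier results of these data known. As alternatives, 0.1 replaced the pseudocount of 1, the filter was dropped or set at a mean of 5 TPM, libraries were scaled by median-of-ratios factors or by quantiles, the variance trend was left out, a replicate block was added, the fit was limited to the 6 libraries compared, and single libraries were left out.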

Additional observations from a re-analysis of the deposited data

Results flagged for a closer look

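For SLC16A3 and PGAM1 every irradiated WT library lay above every unirradiated WT library and every irradiated KO library below every unirradiated KO library. For SLC16A3, the lactate exporter, radiation had a log2 fold change of 0.23 in WT and -0.12 in KO, and the difference between them, -0.36, did not pass by limma (adjusted p = 0.74). For PGAM1, a phosphoglycerate mutase, the log2 fold changes were 0.07 in WT and -0.10 in KO, with a difference of -0.17 (limma adjusted p = 0.73). PGAM1 was at 342, 316 and 343 TPM in WT, 357, 349.6 and 347 TPM in irradiated WT, 337, 343 and 328 TPM in KO and 324, 318 and 300.0 TPM in irradiated KO libraries. SLC16A3 shares its locus with CSNK1D on the other strand.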

How the results depend on the processing

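No log2 fold change of a called member changed sign under any alternative run. The count of members called for KO against WT in unirradiated cells was 1 (PFKP), 2 with a mean TPM of at least 5, and 0 with no filter, either other scaling (median-of-ratios or quantile), no variance trend, the replicate block or only 6 libraries, and 0 to 1 with a library left out. For radiation in WT it was 2, and 1 with no filter, a mean TPM of at least 5 or the replicate block, 0 with only 6 libraries, and 1 to 3 with a library left out. For radiation in KO it was 3, and 2 with no filter, a mean TPM of at least 5 or the replicate block, 1 with only 6 libraries, and 1 to 3 with a library left out. For KO against WT after radiation it was 3, and 2 under the replicate block (without VEGFA), 3 with no filter (ANGPTL4 in place of VEGFA), and 2 to 4 with a library left out. Over all genes, fitting only 6 libraries gave 103, 252, 166 and 195 calls (KO unirradiated, KO irradiated, radiation in WT, radiation in KO) in place of 276, 573, 597 and 590, and the replicate block gave 211, 378, 315 and 359. With a library left out they ranged over 172 to 292, 313 to 542, 242 to 526 and 268 to 553, lowest without KO replicate 2, irradiated WT replicate 1, irradiated WT replicate 1 and KO replicate 2, and the interaction over 1 to 9 in place of 3. The interaction was not fitted to 6 libraries. Deviations of same-numbered libraries from their group means had r from -0.0602 to 0.0641 across the tested genes. Pairing by number was thus not shown, but with 3 libraries in a group these values cannot exclude it.

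The median log2 fold change of the glycolysis genes was -0.0230 under quantile normalization for radiation in KO. With a library left out it ranged from -0.0739 to -0.0232 for radiation in KO, from -0.0749 to -0.0193 for KO unirradiated, from -0.125 to -0.0409 for KO irradiated, and from -0.102 to -0.0297 for the interaction. For other HIF targets a mean TPM of at least 5 gave -0.271 for KO unirradiated and 0.0734 for radiation in WT, and left-out libraries gave -0.255 to -0.112 for KO unirradiated, 0.0251 to 0.201 for radiation in KO and -0.116 to 0.0365, across 0, for the interaction. The cause of these moves was not tested. Depth cannot be known from TPM, so what it limits cannot be stated.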
